A study of Mus musculus with 6 samples.

Results

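Nuclear pore and nuclear transport receptor genes were read in CD4+CD8+ double-positive (DP) thymocytes of control and Paxbp1 cKO mice. These are the genes of the deposited table whose symbol begins with Nup and a digit, or with Xpo, Ipo, Kpna, Kpnb, Tnpo, Ranbp or Rangap, and whose pathway annotation lacks ribosome biogenesis in eukaryotes. The rule gave 52 of 22322 genes, and it left out Xpo1, which carries that pathway. Control mice were Paxbp1 fl/fl littermates on C57BL/6 without Cre. Paxbp1 cKO mice carried the same floxed alleles together with the Lck-cre transgene, whose Lck promoter switches on in early thymocytes, before the DP stage. The mice were 4 to 7 weeks old, of both sexes and untreated. RNA of sorted DP thymocytes was pre-amplified as cDNA and sequenced in 3 libraries per genotype, which are called control 1 to 3 and cKO 1 to 3. The labels do not say whether each library came from its own mouse, so p-values measure the spread between these libraries, which may be technical. The study asked whether a change in a gene pathway could account for the higher rate of apoptosis in Paxbp1-deficient DP cells.

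The nuclear pore is a large channel through the nuclear envelope, built from many copies of proteins called nucleoporins, arranged as outer and inner rings, a central channel lined with flexible phenylalanine-glycine (FG) repeats, cytoplasmic filaments and a nuclear basket. Importins and exportins carry proteins and some RNAs through this channel: they bind a signal in the cargo and the FG repeats, and the small GTPase Ran, loaded with GTP in the nucleus, releases imported cargo and loads exported cargo. Dividing and growing cells, such as thymocytes that proliferate on their way to the DP stage, need much of this traffic to bring in ribosomal proteins and histones.

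Of the 52 genes, 51 had a count in at least 1 library, and 48 passed the filter on low counts and were tested. Kpna7 had 0 counts in every library, which allows a level of up to the 0.116 to 0.156 CPM (counts scaled with TMM factors to a total of 1e6 per library) that 3 counts were worth. Ranbp17 with 0 to 8 counts per library, Ranbp3l with 0 to 3 and Nup62cl with 0 to 19 had too few to be tested. Of the 48 tested genes, 10 rose in Paxbp1 cKO DP thymocytes at an adjusted p below 0.05 (edgeR's quasi-likelihood test, Benjamini-Hochberg adjustment over 11488 genes), which is 20.8% of them against 4.47% of all tested genes. They were the import receptors Ipo4, Ipo5, Ipo7 and Tnpo1, the import adaptor Kpna3, and the nucleoporins Nup43, Nup54, Nup62, Nup98 and Ranbp2. Only Nup210, a membrane protein of the pore, fell, which is 2.08% of the tested genes against 5.89% of all. When the log2 fold change also had to exceed 1 in size, as the study required, Ipo7 alone was called higher, where 1.53% of all genes were, and no gene of the set was called lower, where 1.23% of all genes were.

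An unadjusted p below 0.05 was found in 18 of the 48 genes (37.5%, against 27.9% of all tested genes). DESeq2 gave an adjusted p for 49 genes of the set and called 13 higher (26.5%, against 7.67% of 12370 genes) and 1 lower (2.04%, against 7.68%), adding Kpna1, Ranbp1 and Xpot. The remaining 37 tested genes did not pass the test, with a log2 fold change (cKO over control) above 0 in 23 of them and below 0 in 14. Over all 48, the log2 fold change ran from -1.59 to 1.07, its median was 0.21, and 68.8% of the values lay above 0. The median of all tested genes was -0.0017, and 49.8% of them lay above 0. All 3 cKO libraries stood above all 3 control libraries for 19 of the 48 genes (39.6%, against 15.7% of all tested genes), and below them for 3 (6.25%, against 17.3%). The 52 genes summed to 4592, 4867 and 5048 CPM in control 1 to 3 and to 5280, 5601 and 6010 CPM in cKO 1 to 3, so that the sums did not overlap. In RNA of a cell population, a change in the share of cells of a type and a change in RNA per cell cannot be told apart.

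**Figure D1:**
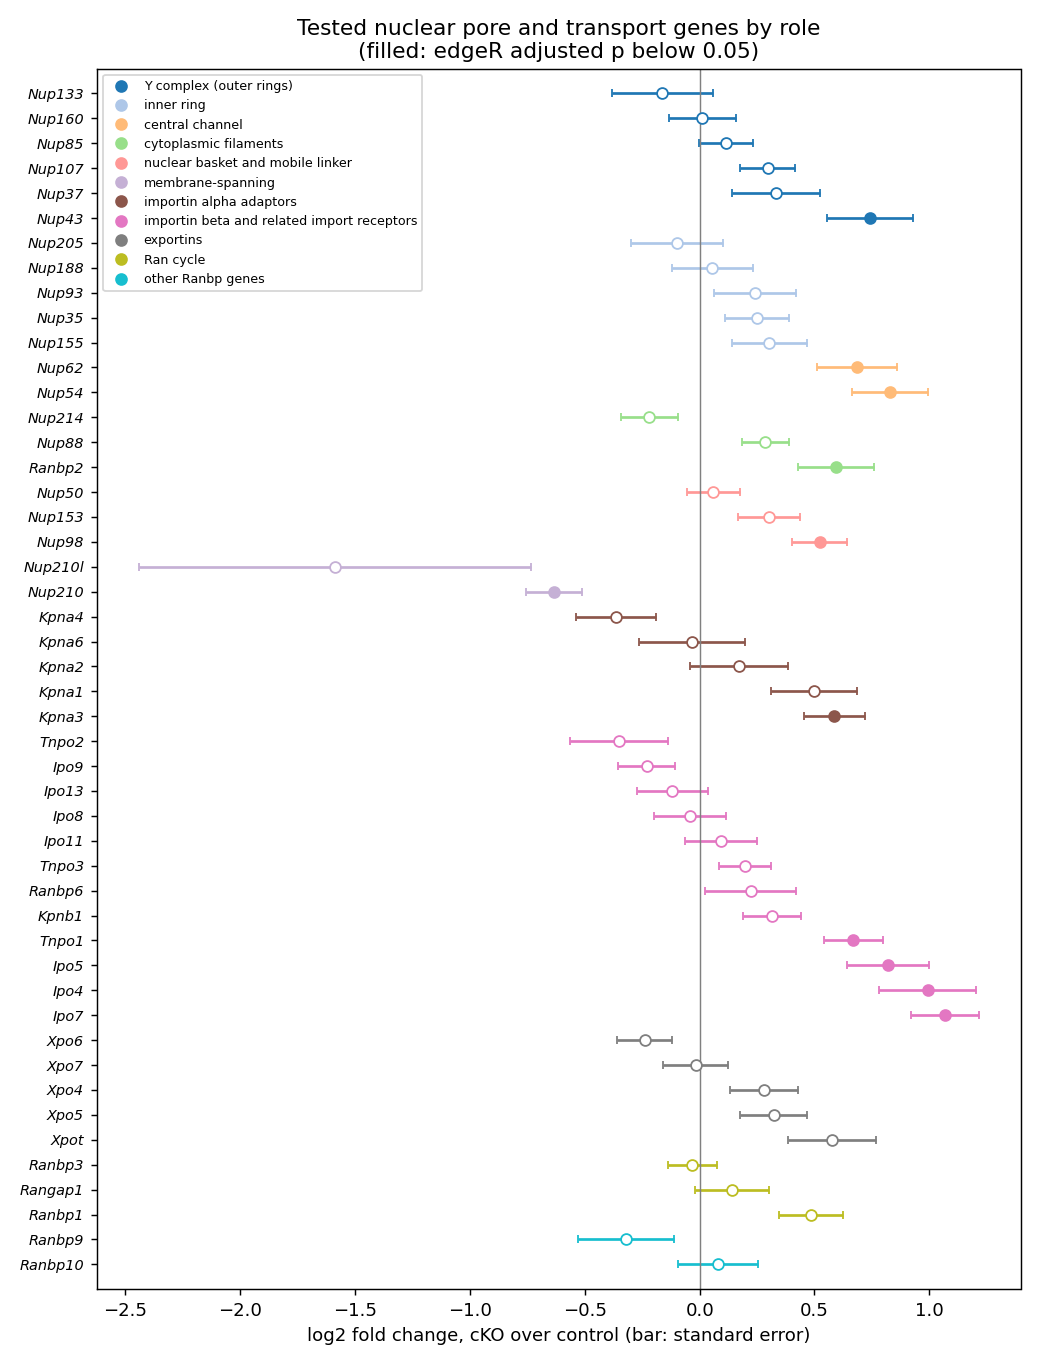
Log2 fold change (cKO over control) of the 48 tested genes, grouped and colored by role, with the standard error as bars and filled points for an adjusted p below 0.05. The 10 filled points to the right of 0 lie in the central channel, the Y complex, the filaments, the basket and linker group, the importin alpha adaptors and the importin beta family, and the filled point to the left is Nup210.

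The import receptors of the importin beta family, which carry cargo through the channel, had the most called genes and were also the role with the most tested genes. Of their 12 tested members 4 rose, with a median log2 fold change of 0.21. Ipo7, an importin for ribosomal proteins and histones, moved the furthest. Its level was 39.5, 47.2 and 46.8 CPM in control 1 to 3 and 99.3, 78.7 and 101.6 CPM in cKO 1 to 3. The mean went from 44.5 ± 4.31 to 93.2 ± 12.6 CPM (SD, n = 3 libraries), a fold of 2.10 on the fitted scale and a log2 fold change of 1.07 ± 0.15 (SE, edgeR adjusted p = 0.0046). Ipo7 lies on chromosome 7 at 110018274 to 110056609, on the plus strand (GRCm38).

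Ipo4, which carries histones and ribosomal proteins, had a lower level, at 13.3, 15 and 9.82 CPM in the controls and 25.05, 22.4 and 28.3 CPM in the cKO libraries. Its log2 fold change was 0.99 ± 0.21 (SE, edgeR adjusted p = 0.0183), just under the fold threshold, and every cKO library exceeded every control. GENCODE places Ipo4 on chromosome 14 at 55625400 to 55635957, on the minus strand, where 55.3% of its exonic bases also belong to the gene model Gm49378. That gene had 0 to 39 counts per library, so how the counting split the shared reads bears on Ipo4. Ipo5, an importin for ribosomal proteins and histones as well, was measured at 56.6, 75.0 and 94.2 CPM in the controls against 126.3, 124.5 and 148.2 CPM in the cKO libraries. Its controls were spread more widely than its cKO libraries, and the groups stayed apart, with a log2 fold change of 0.82 ± 0.18 (SE, edgeR adjusted p = 0.0196). Ipo5 lies on the same chromosome at 120911224 to 120947999, on the plus strand.

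Tnpo1, also called transportin, imports hnRNP proteins and other RNA-binding proteins. It stood at 80.8, 76.05 and 82.9 CPM in the controls and at 125.2, 112.3 and 143.8 CPM in the cKO libraries, for a log2 fold change of 0.67 ± 0.13 (SE, edgeR adjusted p = 0.0122). The gene is on chromosome 13 at 98839019 to 98926384, on the minus strand. Its relative Tnpo3, which imports splicing factors rich in serine and arginine and had the highest FPKM of the family, did not pass the test. Tnpo3 was at 157.7, 171.8 and 173.8 CPM against 174.8, 197.1 and 205.3 CPM, groups that do not overlap, with a log2 fold change of 0.20 (adjusted p = 0.287). Kpnb1, the importin beta that works with the alpha adaptors, was at 77.2, 94.5 and 86.5 CPM against 113.7, 97.5 and 110.0 CPM, and its log2 fold change was 0.31 (adjusted p = 0.140). The groups do not overlap for Kpnb1 either, but the gap between control 2 and cKO 2 was small. The log2 fold changes of the other 6 tested receptors of the family, Ipo8, Ipo9, Ipo11, Ipo13, Tnpo2 and Ranbp6, ran from -0.35 in Tnpo2 to 0.22 in Ranbp6, with adjusted p from 0.255 to 0.896.

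The importin alpha adaptors recognise the classical nuclear localization signal and hand the cargo to Kpnb1. Of the 5 tested, 1 rose, and their median log2 fold change was 0.17. Kpna3 was almost equal in the controls, at 103.2, 105.2 and 107.1 CPM, and higher in every cKO library, at 130.9, 166.2 and 176.6 CPM. The mean rose from 105.2 ± 1.97 to 157.9 ± 24.0 CPM (SD, n = 3 libraries), and the log2 fold change was 0.59 ± 0.13 (SE, edgeR adjusted p = 0.0228). Kpna3 is on chromosome 14 at 61365211 to 61439874, on the minus strand. Kpna2, which has the highest FPKM of the adaptors and is known to be abundant in dividing cells, was at 225.8, 425.1 and 403.6 CPM against 341.0, 400.1 and 446.9 CPM. Control 1 stood far under the other libraries, the groups overlapped, and the log2 fold change was 0.17 (adjusted p = 0.651). GENCODE also names a processed pseudogene of Kpna2 on chromosome 17, with which reads could be shared. Kpna1 had a log2 fold change of 0.50 (adjusted p = 0.114), Kpna6 of -0.03 (adjusted p = 0.949) and Kpna4 of -0.37 (adjusted p = 0.203). The 5 tested adaptors thus spanned both signs, and only Kpna3 was called.

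Among the nucleoporins, both tested genes of the central channel rose. Nup62 and Nup54 encode FG-repeat proteins that sit together in the channel with Nup58. Nup62 was at 193.9, 198.7 and 226.7 CPM in the controls and at 250.0, 324.0 and 421.7 CPM in the cKO libraries. The cKO libraries were far apart from each other, with a mean of 331.9 ± 86.1 CPM against 206.5 ± 17.7 CPM (SD, n = 3 libraries), and cKO 1 was nearest to the controls. The log2 fold change was 0.68 ± 0.17 (SE, edgeR adjusted p = 0.0353). Nup62 lies on chromosome 7 at 44816088 to 44830812, on the plus strand, and shares 97 exonic bases with Il4i1 and 82 with the antisense gene Atf5, which had 0 to 12 and 21 to 52 counts. Nup54 had control values of 39.9, 42.75 and 39.2 CPM and cKO values of 57.6, 71.7 and 87.2 CPM, in the same order of libraries. Its log2 fold change of 0.83 ± 0.16 (SE, edgeR adjusted p = 0.0145) was the largest of the nucleoporins that rose. Nup54 is on chromosome 5 at 92415540 to 92435219, on the minus strand. Nupl1, the symbol for Nup58, had 0 to 4 counts per library and was not tested. These counts alone do not show that Nup58 is absent, since the annotation used for counting is not given.

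On the faces of the pore, 2 more FG nucleoporins rose. Ranbp2 (Nup358) is the large protein of the cytoplasmic filaments that binds Ran and the SUMO-modified Ran GTPase-activating protein. It was at 151.7, 104.1 and 97.5 CPM in the controls and at 166.3, 177.1 and 189.2 CPM in the cKO libraries. Control 1 lay close to cKO 1 and apart from the other controls, and the log2 fold change of 0.59 ± 0.17 (SE, edgeR adjusted p = 0.0483) was the call nearest to the threshold. Ranbp2 is on chromosome 10 at 58446920 to 58494356, on the plus strand, and 12 pseudogenes named after it on chromosome 7 could share its reads. Nup98, a mobile linker nucleoporin that also binds mRNA export factors, was at 96.85, 95.6 and 86.4 CPM against 131.9, 122.7 and 146.2 CPM. No library of either group came near the other, and the log2 fold change was 0.52 ± 0.12 (SE, edgeR adjusted p = 0.0244). The transcript of Nup98, on chromosome 7 at 102119398 to 102210176 on the minus strand, also encodes the Y-complex protein Nup96, which gene counts cannot tell from Nup98.

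The genes of their neighbours in the pore were not called. Nup88, which has the highest FPKM of the filament genes, was at 176.4, 183.6 and 184.8 CPM against 223.5, 224.9 and 215.8 CPM. The groups were tight and did not overlap, and the log2 fold change of 0.29 ± 0.10 missed the threshold (SE, edgeR adjusted p = 0.0988). Nup214, the filament partner of Nup88, had a log2 fold change of -0.22 (adjusted p = 0.282). In the basket, Nup153 had a log2 fold change of 0.30 (adjusted p = 0.174). Nup50, with the highest FPKM of this group, was at 197.3, 171.3 and 169.9 CPM against 179.4, 178.5 and 203.1 CPM, overlapping groups with a log2 fold change of 0.06 (adjusted p = 0.787).

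The Y complex forms the outer rings and also works at kinetochores in mitosis. Of its 6 tested genes 1 rose, with a median log2 fold change of 0.20. Nup43 was at 15.45, 20.7 and 22.2 CPM in the controls and at 29.0, 33.15 and 35.5 CPM in the cKO libraries. Its log2 fold change was 0.74 ± 0.19 (SE, edgeR adjusted p = 0.0338), and the highest control stayed under the lowest cKO library. Nup43 is on chromosome 10 at 7667503 to 7678881, on the plus strand. The core genes of the complex were not called, with log2 fold changes of 0.30 in Nup107 (adjusted p = 0.141), 0.01 in Nup160 (adjusted p = 0.974) and -0.16 in Nup133 (adjusted p = 0.683). Nup85, with the highest FPKM of the complex, was at 122.3, 133.9 and 148.3 CPM against 145.2, 137.9 and 154.6 CPM, and its log2 fold change was 0.11 (adjusted p = 0.580). None of the 5 inner ring genes, whose products scaffold the channel, passed the test in either direction by edgeR or DESeq2, and at an unadjusted p below 0.05 the count was 0 as well. Their log2 fold changes ran from -0.10 in Nup205 to 0.30 in Nup155. The inner ring gene with the highest FPKM, Nup35, was at 50.6, 49.2 and 54.1 CPM against 53.0, 62.6 and 67.6 CPM (log2 fold change 0.25, adjusted p = 0.275), with a narrow overlap between control 3 and cKO 1.

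Nup210 (gp210), which spans the pore membrane and is not part of every pore in every cell type, went the other way. It was at 188.3, 181.6 and 176.2 CPM in the controls and at 107.7, 134.6 and 109.3 CPM in the cKO libraries. The controls had a mean of 182.1 ± 6.05 CPM (SD, n = 3 libraries), and every cKO library was far below them, at a mean of 117.2 ± 15.1 CPM. The log2 fold change was -0.64 ± 0.12 (SE, edgeR adjusted p = 0.0128). Nup210 lies on chromosome 6 at 91013068 to 91116829, on the minus strand. Its paralog Nup210l, known as a testis gene, had 1 to 29 counts per library, the lowest of the tested genes. All its cKO values lay under its control values, and the log2 fold change of -1.59 ± 0.85 did not pass the test (SE, edgeR adjusted p = 0.258).

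**Figure D2:**
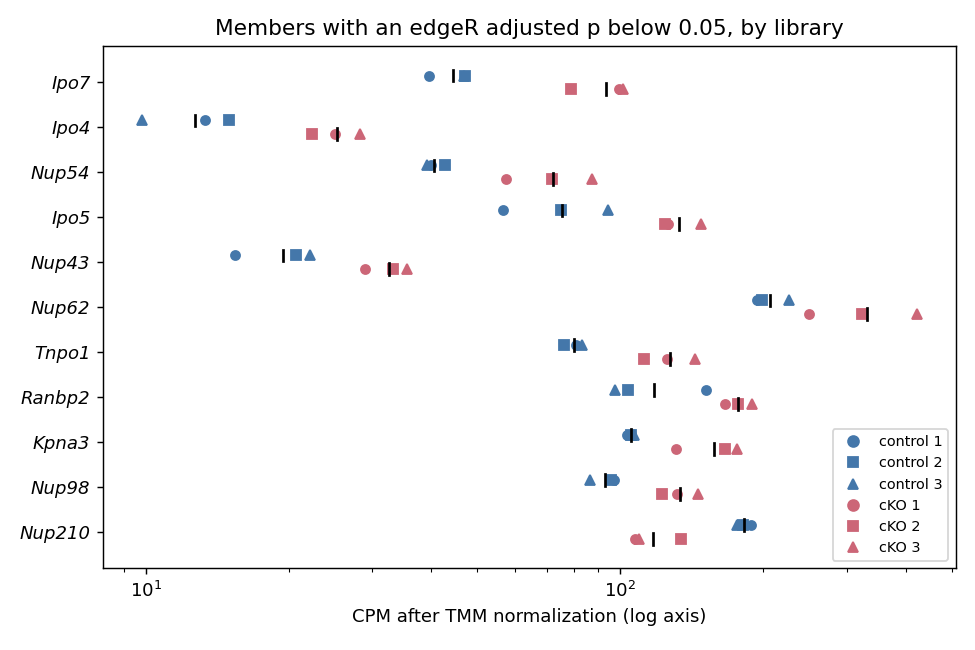
CPM after TMM normalization (log axis) of the 11 genes with an adjusted p below 0.05, in each library, with a black tick at the mean of each group. In all 11 genes the control and cKO points do not overlap, and Nup210 is the gene whose cKO points lie on the left.

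In all 10 genes that rose, cKO 3 had the highest level. The lowest level was in control 1 for 5 of them, in control 3 for 4 and in control 2 for 1. Over the 48 tested genes, cKO 3 was the highest library for 24 and control 1 the lowest for 21. Such counts over all tested genes are not given here, so the pattern may not be particular to this set. The median coefficient of variation between libraries of a group was 12.7% in the controls and 10.1% in the cKO libraries, against 16.3% and 13.3% over all tested genes.

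Exportins carry cargo out of the nucleus with RanGTP. None of the 5 exportin genes of the set was called in either direction by edgeR, 1 of them had an unadjusted p below 0.05, and their median log2 fold change was 0.28. That gene was Xpot, the exportin for tRNA, at 39.6, 48.9 and 36.6 CPM against 49.6, 58.6 and 78.2 CPM. Its groups were apart by less than 1 CPM, and the log2 fold change was 0.58 ± 0.19 (SE, edgeR adjusted p = 0.0797), while DESeq2 called it. Xpo6, which exports actin with profilin and had the highest FPKM of the exportins, was at 165.0, 167.7 and 186.4 CPM against 161.3, 132.0 and 146.7 CPM. Its cKO values all lay under the control values, with a log2 fold change of -0.24 (adjusted p = 0.226). Xpo5, which exports pre-miRNAs, had a log2 fold change of 0.32 (adjusted p = 0.18), Xpo4 of 0.28 (adjusted p = 0.247) and Xpo7 of -0.02 (adjusted p = 0.955).

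The Ran cycle keeps RanGTP high in the nucleus and low outside it. None of its 3 tested genes in the set was called by edgeR, and 1 had an unadjusted p below 0.05. That gene was Ranbp1, which helps Rangap1 to hydrolyse the GTP of Ran on exported complexes and which has the highest FPKM of all 48 tested genes. Ranbp1 was at 176.3, 227.6 and 252.7 CPM in the controls and at 313.6, 294.8 and 311.3 CPM in the cKO libraries, groups that do not overlap. Its log2 fold change of 0.49 ± 0.14 had an edgeR adjusted p of 0.0510 (SE), and it was called in each of the 7 analyses with another scaling, tool, filter or design, as with DESeq2 (adjusted p = 0.0107). Ranbp1 shares 281 exonic bases (16.9%) with the gene model Gm49776 on the same strand, which had 0 to 2 counts, and 54 with the antisense gene Trmt2a, which had 1519 to 2632 counts. Rangap1, the GTPase-activating protein, was at 138.8, 189.0 and 214.6 CPM against 179.3, 220.0 and 198.4 CPM (log2 fold change 0.14, adjusted p = 0.625). Of the Ranbp genes with roles outside transport, Ranbp10 was at 69.7, 51.7 and 43.9 CPM against 56.9, 61.8 and 56.1 CPM (log2 fold change 0.08, adjusted p = 0.807), and Ranbp9 had a log2 fold change of -0.32 (adjusted p = 0.350). In Rangap1 and Ranbp10 the control libraries spread more widely than the groups differed.

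Levels were compared between genes by the authors' FPKM, which divides by gene length. The mean over the 6 libraries ran from 0.138 FPKM in Nup210l to 251.5 FPKM in Ranbp1, with a median of 22.0 FPKM, and 42 of the 48 tested genes had at least 10 FPKM. Kpna2 followed at 188.7 FPKM, Nup62 at 109.6 FPKM and Nup88 at 83.7 FPKM. Among the called genes, Ipo4 had the lowest level at 5.61 FPKM and Nup62 the highest. The other called genes lay between 14.6 FPKM in Ipo7 and 32.4 FPKM in Kpna3. The channel and filament genes with the highest FPKM were thus Nup62 and Nup88, and Nup85 led the Y complex at 64.2 FPKM, Nup50 the basket group at 48.6 FPKM, Tnpo3 the importin beta family at 45.6 FPKM, Xpo6 the exportins at 40.2 FPKM, Nup35 the inner ring at 38.3 FPKM and Ranbp10 the other Ranbp genes at 10.7 FPKM.

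**Figure D3:**
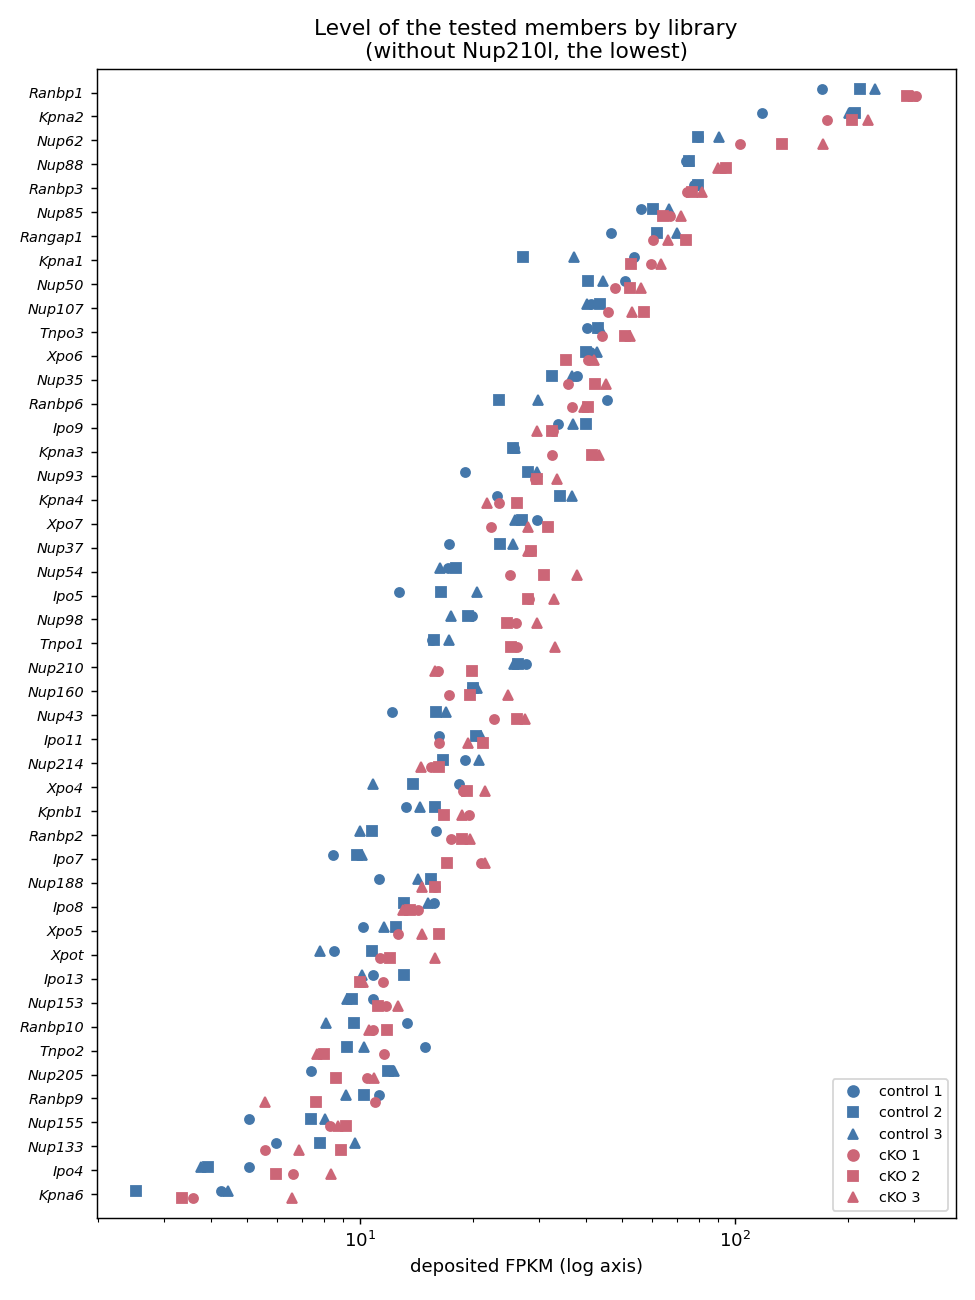
Deposited FPKM (log axis) of 47 tested genes in each library, ordered by their mean, with Nup210l left out. Ranbp1 is at the top with a mean of 251.5 FPKM, the median gene is at 22.0 FPKM, and Ipo4 and Kpna6 are at the bottom.

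The promoters of the called genes were read for letters that known factors of growth and division bind, since 10 genes rose in the same comparison. RefSeq promoters (GRCm38.p6, 250 bases before to 50 after the start) were given for 37 of the 48 tested genes and for 8 of the 10 that rose, which leaves out Nup43 and Kpna3. A gene with more than 1 promoter counted once, as holding a motif if any of its promoters did. The E-box CACGTG, which MYC and related factors bind, reads the same on both strands. It was found for 4 of the 8 genes (Ipo4, Ipo7, Nup54 and Ranbp2), for 4 of the 29 other tested genes of the set (Nup188, Nup93, Tnpo2 and Xpot) and for 11.9% of the 9151 tested genes with a promoter. Counted by promoter, it was in 7.15% of all 32841. In Ipo4 it lay 15 bases into the transcript. In the other 3 genes it lay upstream of the start, and these stretches are shown with the E-box in capitals, together with the NRF1 motif of the Nup62 promoter, also in capitals.
Ipo7, chr7:110018151-110018210, plus strand, E-box 137 bases upstream: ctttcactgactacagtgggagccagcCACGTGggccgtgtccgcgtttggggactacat
Nup54, chr5:92435267-92435326, minus strand, E-box 100 bases upstream: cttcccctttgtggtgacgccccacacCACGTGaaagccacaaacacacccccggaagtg
Ranbp2, chr10:58446738-58446797, plus strand, E-box 87 bases upstream: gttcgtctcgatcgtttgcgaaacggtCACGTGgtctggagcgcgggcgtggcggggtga
Nup62, chr7:44816042-44816087, plus strand, NRF1 motif 19 bases upstream: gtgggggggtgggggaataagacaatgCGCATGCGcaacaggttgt

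Other motifs were searched on both strands of the same windows. The NRF1 motif CGCATGCG was found for 4 of the 37 genes (Nup62, Nup107, Nup50 and Xpo5) against 4.67% of all tested genes with a promoter, and in 1.87% of all promoters. The ETS motif CCGGAAGT was found for 4 of the 37, among them Ipo4 and Nup54, against 9.89% of tested genes and 3.89% of promoters. The E2F motif, searched as TTTCGCGC or TTTGGCGC, was found for Ipo7 only among the 37, against 1.96% of tested genes and 0.813% of promoters. The CCAAT box was found for 18 of the 37 (48.6%), against 43.9% of tested genes and 37.4% of promoters. In the called genes no match of the E-box, NRF1, ETS or E2F letters overlapped another. The motifs were chosen after the changes were known, and a match is a description of letters, not a site in use.

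Pore and transport genes left out by the rule, Xpo1 by its pathway and the others by their symbols, were read from a list of 23, of which 22 were tested. Of these 1 rose and 1 fell, where 4.47% of all tested genes rose and 5.89% fell. A log2 fold change above 0 was found in 17 (77.3%, against 49.8% of all tested genes), and the median was 0.19, against -0.0017 for all. Xpo1 (CRM1), the main exportin for proteins and ribosomal subunits, rose from 179.1, 163.7 and 211.3 CPM to 246.2, 283.1 and 288.6 CPM, groups that do not overlap (log2 fold change 0.56 ± 0.13, SE, edgeR adjusted p = 0.0244). Rae1, the mRNA export factor that binds Nup98, fell from 165.1, 153.9 and 165.0 CPM to 115.8, 104.3 and 91.1 CPM. Its log2 fold change was -0.64 ± 0.12 (SE, edgeR adjusted p = 0.0126), opposite in sign to that of Nup98. Ran itself, the most abundant of the list in CPM, was at 466.7, 669.7 and 758.8 CPM against 798.7, 848.5 and 869.3 CPM. All cKO libraries stood above the controls, control 1 stood apart from the other controls, and the log2 fold change was 0.41 ± 0.16 (SE, edgeR adjusted p = 0.132). Rcc1, which loads Ran with GTP, had a log2 fold change of 0.45 (adjusted p = 0.266), and Cse1l, which returns importin alpha to the cytoplasm, of 0.11 (adjusted p = 0.596). Pom121, another membrane nucleoporin, was at 68.2, 81.1 and 84.4 CPM against 54.5, 59.3 and 65.1 CPM, lower in every cKO library but not called (log2 fold change -0.39, adjusted p = 0.0986). The basket protein gene Tpr (log2 fold change 0.04, adjusted p = 0.859) and the mRNA export receptor gene Nxf1 (-0.05, adjusted p = 0.806) were not called either.

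The mRNA export genes of the TREX and TREX-2 complexes, 20 rows of the table and all tested, held no call by edgeR in either direction. An unadjusted p below 0.05 was found in 3 (15%, under the 27.9% of all tested genes), DESeq2 called 1 higher (5%, under the 7.67% of all), and the median log2 fold change was -0.03. In the deposited pathway annotation, RNA transport held 150 tested genes, of which 14 rose (9.33%) and 4 fell. The 25 tested genes of the set within it had 5 that rose (20.0%) and 1 that fell, and its 125 other genes had 9 that rose (7.2%) and 3 that fell. The 23 tested genes of the set outside that pathway had 5 that rose (21.7%), Ipo4, Ipo5, Ipo7, Kpna3 and Tnpo1, and none that fell.

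Other genes moved with the same contrast, in which 4.47% of all tested genes rose and 5.89% fell. Of 20 tested genes of proliferation 9 rose (Mcm2 to Mcm7, Pcna, Cdt1 and Ccne2), and none fell. The others, Ccne1, Mki67, Top2a, Ccnb1, Ccnb2, Cdk1, Ccna2, Plk1, Aurkb, Bub1 and Birc5, were not called. Of these, 4 had a log2 fold change below 0: Ccna2 (-0.05), Top2a (-0.16), Birc5 (-0.20) and Ccnb2 (-0.36). The 20 genes summed to 5066, 6977 and 7822 CPM in control 1 to 3 and to 8223, 9293 and 10840 CPM in cKO 1 to 3. Control 1 was lowest and cKO 3 highest, as for the pore genes. Of 10 genes that mark DP cells, all passed the filter on low counts, and 3 fell (Rag1, Cd3e and Cd8b1). The log2 fold change lay below 0 in all 10, with a median of -0.34. Their sums were 10290 to 12200 CPM in the controls and 7675 to 9087 CPM in the cKO libraries. Of 10 genes of double-negative and immature single-positive thymocytes 3 rose (Hes1, Il2ra and Dtx1) and none fell. Their log2 fold changes lay above 0 in 6 and below 0 in 4 (Kit, Notch3, Mycn and Cd44), with a median of 0.11. The sums were 238.0 to 280.0 CPM against 326.6 to 368.7 CPM, and Hes1 alone went from a mean of 7.83 to 54.1 CPM. Of 20 macrophage genes 19 had a count and 15 were tested, 7 rose and none fell, with sums of 29.6 to 55.5 CPM against 77.65 to 104.3 CPM. Adgre1, Mertk and Timd4 were at 0 counts in all controls, Mertk also in all cKO libraries. Cd69 rose among 6 tested genes of mature single-positive cells, Cd79b fell as the only tested B cell gene, and none of the tested dendritic cell (2), thymic epithelial (2) and erythroid (5) genes was called. The part that these differences have in the pore and transport genes was not tested. Paxbp1 counts do not check the deletion, since a single exon is floxed: the gene was at 40.1, 16.3 and 15.5 CPM in the controls and 38.8, 47.1 and 49.6 CPM in the cKO libraries (log2 fold change 0.92, adjusted p = 0.0977).

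How far the calls rested on single libraries differed between genes. Ipo7 was called in all 6 analyses that left out a library, with a log2 fold change of 0.99 to 1.17 and an adjusted p of 0.00316 to 0.0406. Nup54 was lost only without cKO 3 (adjusted p = 0.0804), Tnpo1 without control 2 or cKO 3, and Nup210 without cKO 1 or cKO 3, with a log2 fold change of -0.75 to -0.58. Ipo4 was lost without control 3, cKO 1 or cKO 3, Ipo5 without control 2, cKO 1 or cKO 3, Kpna3 and Nup62 without any of control 2, control 3, cKO 2 and cKO 3, and Nup98 without any of control 2, control 3, cKO 1 and cKO 3. Nup43 and Ranbp2 were called only in the analysis without control 1 among these 6. Xpo1 was lost without control 2, cKO 2 or cKO 3, and Rae1 without cKO 3. Without cKO 3, 42 of all genes were called higher (0.359%), and Ipo7 was the only gene of the set called. In the 7 analyses with another scaling, tool, filter or design, the 11 genes were called each time, except Ranbp2 with libraries scaled by total counts alone (adjusted p = 0.0507).

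**Figure D4:**
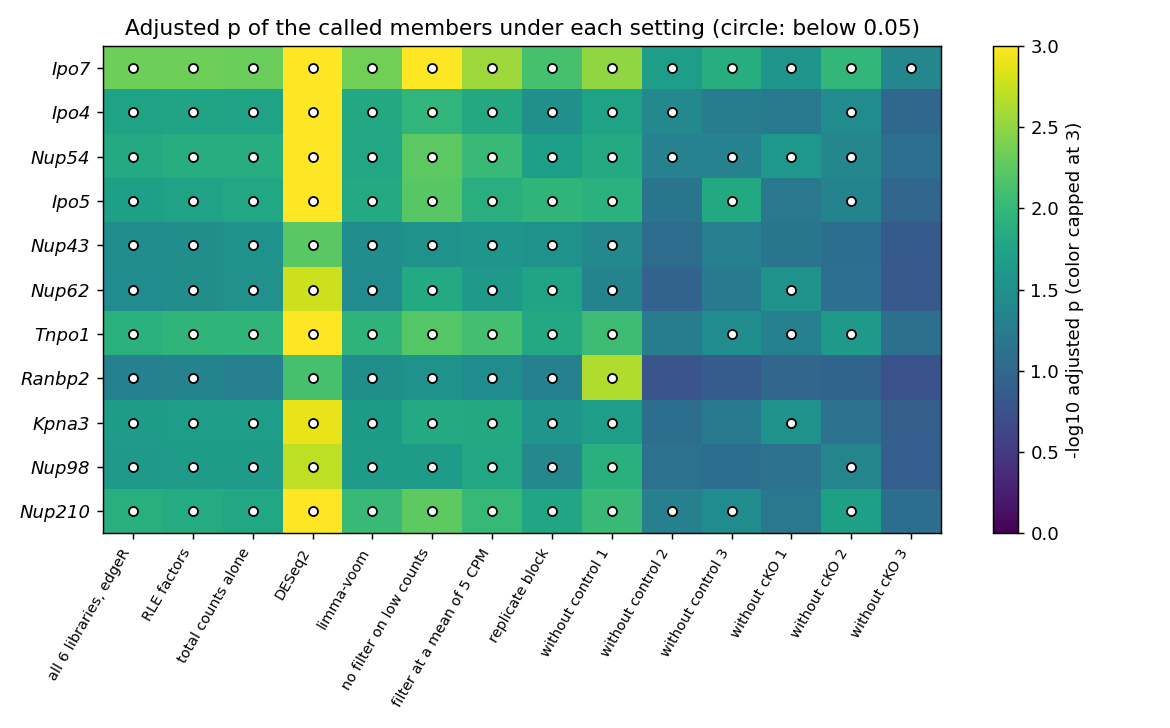
Adjusted p of the 11 called genes (color, as -log10 p, capped at 3) under each way of analysis, with a circle where it is below 0.05. Ipo7 has a circle in every column, and the column without cKO 3 has no other circle.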

How the data were processed

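RNA-Seq was done on sorted DP thymocytes, with cDNA pre-amplified by the Discover-sc WTA Kit V2 per the study's methods, whereas the labels name a SMARTER kit. Libraries were sequenced on a HiSeq2500. The authors deposited a single table with raw counts per gene and library and with FPKM, scaled by the authors to gene length and library size. The submitters' processing notes name fastp 0.18.0, Bowtie2 2.2.8, HISAT2, StringTie and RSEM without their roles. No source used here gives the genome build, annotation or strand setting. The group means, log2 ratios, p-values and adjusted p-values that the authors deposited hold their own comparison and were not used.

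Counts were fitted with edgeR 4.0.16 in R 4.3.3 on the whole table, with TMM factors of 0.982 to 1.01, filterByExpr (minimum count 10, minimum total 15, 11488 of 15349 genes with a count) and genotype as the only term. Libraries held 18963775 to 26252248 counts, so 1 count was worth 0.039 to 0.052 CPM after TMM scaling, and limits from counts cover counting error only. The quasi-likelihood test was adjusted by Benjamini-Hochberg, and the script was checked on simulated counts. FPKM was used to compare genes. Alternatives were RLE factors, total counts alone, DESeq2 1.42.0, voom of limma 3.58.1, no filter, a filter at a mean of 5 CPM, a replicate block and leaving out each library. Levels in CPM use the TMM factors.

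Named in full were the genes at an adjusted p below 0.05 and, in each role, the gene with the highest FPKM. Named besides were Ran, Rcc1, Cse1l, Xpo1, Nxf1, Tpr, Pom121 and called genes of the outside and mRNA export lists. Other genes were named after their values were seen. The genes, roles and lists were chosen with earlier results of these data known. Positions are from GENCODE M21 (GRCm38), matched by Ensembl identifier. Shared exonic bases were counted in that annotation.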

Additional observations from a re-analysis of the deposited data

How the results depend on the processing

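The counts of called pore and transport genes kept within 1.5 times their value under RLE factors, total counts alone, DESeq2, limma-voom, no filter and the filter at a mean of 5 CPM, with 10 to 13 higher and 1 lower. The count past the fold threshold was 2 in place of 1 under RLE factors, total counts alone, DESeq2, limma-voom, the 5 CPM filter and the replicate block, where Ipo4 passed a log2 fold change of 1. Over all tested genes, 514 were higher and 677 lower, 949 and 950 with DESeq2, and 42 to 1000 and 78 to 1030 when a library was left out. Replicate numbers gave no clear sign of pairing: same-numbered control and cKO libraries deviated from their group means with correlations of 0.0451, 0.0377 and -0.0300. For libraries of unlike number the correlations ran from -0.0787 to 0.0401. Such values cannot exclude a shared litter or batch. With the replicate number as a block, 12 genes were higher and 1 lower. Leaving out a library gave 1 to 15 higher, 0 to 2 lower, 0 to 2 past the fold threshold and a median log2 fold change of 0.15 to 0.27. Among the pore and transport genes left out by the rule, 3 were higher with DESeq2 and 2 with the 5 CPM filter, and leaving out a library gave 0 to 2 higher and 0 to 2 lower. Of the mRNA export genes, 1 was higher with DESeq2 and with the block, and leaving out a library gave 0 higher and 0 to 1 lower. Of the named genes, 4 with a log2 fold change near 0 changed sign when a library was left out, ranging from -0.0064 (without cKO 3) to 0.13 in Nup50, from -0.068 (without control 1) to 0.328 in Kpna2, from -0.060 (without control 3) to 0.284 in Ranbp10 and from -0.011 (without control 3; -0.0032 without control 2) to 0.138 in Tpr. Apart from the construction of each analysis, with fewer libraries or other genes tested, the cause was not tested. At this depth 47 of the 48 tested genes had at least 100 counts in every library, and Nup210l is the exception.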
